A study of Mus musculus with 6 samples.

Results

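Fibronectin, thrombospondins and other matricellular proteins were followed here as a group of 10 genes, Fn1, Thbs1, Thbs2, Thbs3, Tnc, Sparc, Spp1, Postn, Fbn1 and Ecm1. They were picked by name from the 24129 genes in the table, and the choice was made with their T1 and T2 values already known. Their differences between T1 and T2 cells are therefore given as a description, with standard errors and without a test. T1 and T2 cells are tumor cell populations that came out of a primary tumor grown in BALB/c mice from 4T1GFP cells, a mouse mammary carcinoma line tagged with GFP. Both were obtained by re-sorting a culture of cancer associated fibroblasts that GFP+ tumor cells had overgrown, and both were kept in the same DMEM/F-12 medium with serum. T1 cells (4T1A in the labels) had low GFP, an adherent epithelial shape and fast growth. T2 cells (4T1NA) had high GFP, were round and loosely attached, grew slowly and were passaged like a suspension culture, without trypsin. RNA came from 3 replicates of each population, and no added treatment separates them. Each population is a single sorted isolate, so a difference between them is one between these 2 isolates.

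The extracellular matrix is the protein mesh to which cells attach. Fibronectin and fibrillin build its fibrils, whereas matricellular proteins such as thrombospondins, tenascin C, SPARC, osteopontin and periostin sit in it mainly to regulate adhesion, growth factors and remodelling. Cells read these proteins through integrins, syndecans, CD44 and CD47, and in mammary tumors several of them are known for their association with invasion and metastasis.

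Values are normalized counts, which are a gene's reads divided by the size factor of its sample, and 1 read was worth between 0.928 and 1.06 of them. The 6 libraries held between 18133227 and 20839686 reads on genes. Differences are on the log2(normalized count + 1) scale, T1 minus T2, from limma over the 11514 genes whose mean reached 10 normalized counts. Means are given ± the SD of 3 replicates. Of the 10 genes, 9 reached that mean and Thbs2 did not. Epithelial cytokeratins marked both populations, with Krt8 between 17356 and 23297 and Krt18 between 19625 and 25833 normalized counts in the 6 libraries, while Krt5 had no read. Krt14 had 3707 to 3845 in T1 cells and at most 7 reads in a T2 library. The 6 epithelial markers summed to 64001 to 69949 in T1 and 37480 to 43407 in T2 libraries. Epcam and Cdh1 were abundant in T1 cells (2931 to 3502 and 13726 to 15461) and low in T2 cells (30.7 to 37.2 and 453 to 484). In bulk RNA, a gene carried by fewer cells cannot be told apart from one with less RNA per cell, and this holds for every value given here.

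The 10 genes did not move in 1 direction. Fn1, Thbs1, Thbs3, Postn and Fbn1 had every T1 replicate above every T2 replicate. Tnc, Spp1 and Ecm1 had every T2 replicate above every T1 replicate. Thbs2 and Sparc overlapped. Of the genes compared in the whole table, 68.1% had T1 and T2 values that did not overlap. With the study's cut-offs of 0.01 for the adjusted p-value and 2 for the log2 difference, applied here to limma and in both directions, the table had 4.17% of its genes higher and 4.2% lower in T1 cells. Fn1, Thbs1 and Postn lay past both filters as higher in T1 cells and Tnc, Spp1 and Ecm1 as lower, which the choice of these genes had already fixed.

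**Figure D1:**
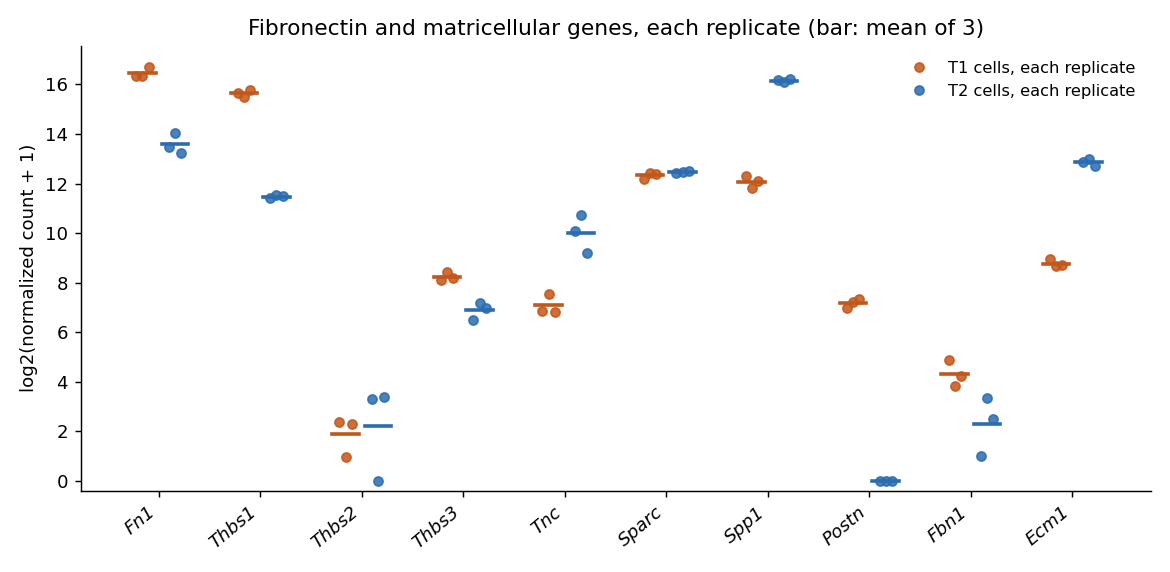
Each point is 1 replicate, with log2(normalized count + 1) on the vertical axis, T1 cells in orange, T2 cells in blue and a bar at the mean of 3. The 3 T2 replicates of Postn lie at 0, those of Spp1 and Ecm1 stand far above T1 cells, and Sparc is level in both.

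The promoters of the genes with the widest gaps that could be looked up are shown first, since genes high in T1 cells and genes high in T2 cells can be read side by side. RefSeq windows for build GRCm38.p6 were found for 8 of the 10 genes, with Fn1 and Thbs1 the other 2. The 250 bases before the start are printed 5′ to 3′ on the strand of the gene, for Ecm1 (chr3:95739570-95739819, minus strand), Spp1 (chr5:104434861-104435110, plus strand) and Tnc (chr4:64047016-64047265, minus strand), all high in T2 cells, and for Postn (chr3:54360857-54361106, plus strand), high in T1 cells. No window printed overlaps an annotated exon. Capitals mark letters that match the AP-1 motif TGANTCA, the TATA box TATAAA, the GC box GGGCGG or the CCAAT box on either strand. The TEAD motif GGAATG was also searched.
Ecm1: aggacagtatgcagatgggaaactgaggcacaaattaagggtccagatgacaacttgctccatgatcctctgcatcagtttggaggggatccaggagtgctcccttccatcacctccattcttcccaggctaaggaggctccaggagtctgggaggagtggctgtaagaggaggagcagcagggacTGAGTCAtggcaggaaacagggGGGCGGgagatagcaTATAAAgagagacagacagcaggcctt
Spp1: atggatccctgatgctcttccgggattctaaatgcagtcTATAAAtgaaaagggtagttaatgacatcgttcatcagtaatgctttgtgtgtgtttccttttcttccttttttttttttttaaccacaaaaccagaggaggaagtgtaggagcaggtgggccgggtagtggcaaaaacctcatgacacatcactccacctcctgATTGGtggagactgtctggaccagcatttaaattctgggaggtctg
Tnc: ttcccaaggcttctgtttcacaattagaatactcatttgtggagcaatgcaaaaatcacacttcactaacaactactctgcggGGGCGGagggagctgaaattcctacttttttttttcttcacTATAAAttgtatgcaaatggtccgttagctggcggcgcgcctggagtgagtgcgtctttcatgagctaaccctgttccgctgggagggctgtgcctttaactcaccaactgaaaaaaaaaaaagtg
Postn: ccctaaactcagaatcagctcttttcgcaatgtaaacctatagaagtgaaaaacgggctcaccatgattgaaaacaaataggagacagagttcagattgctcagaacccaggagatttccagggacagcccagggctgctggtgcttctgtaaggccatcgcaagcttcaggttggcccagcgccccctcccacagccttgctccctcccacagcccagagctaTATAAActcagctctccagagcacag

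Ecm1 and Postn each had TATAAA close to the start, with its first base 27 and 26 bases before it. In Spp1 and Tnc the same letters lay farther away, at 211 and 126 bases. Spp1, Tnc and Postn each have 1 more window, for another start, that is not printed. That of Tnc overlaps a Tnc exon and held TATAAA at 205 bases, and those of Spp1 and Postn held no match. Among 32536 distinct windows of this length, 12.3% held TATAAA on at least 1 strand, at any position. Ecm1 was the only one of the windows of the 8 genes with the AP-1 letters, 64 bases before the start, and 6.73% of all windows held them. Of the windows printed, Ecm1 and Tnc held GGGCGG, 42 and 167 bases before the start, against 33.0% of all windows. Spp1 held CCAAT, read on the other strand, at 46 bases, against 33.8%. None of the windows of the 8 genes held GGAATG, which 12.6% of all windows had. These matches are letters in a window. Binding was not measured, and T1 and T2 genes shared the TATA letters.

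Fibronectin, encoded by Fn1 (chromosome 1, 71585520 to 71653200, minus strand, mm10), is a fibril-forming glycoprotein that integrins bind. It had 84207, 83423 and 107954 normalized counts in T1 replicates 1 to 3. The T2 replicates had 11503, 16732 and 9543. The lowest T1 replicate was thus far above the highest T2 replicate. The means were 91862 ± 13942 in T1 cells and 12593 ± 3716 in T2 cells, a ratio of 7.29 and a log2 difference of 2.90 with a standard error of 0.18. T2 replicate 2 held the highest of the T2 values, and without it the log2 difference was 3.12. Fn1 made up 0.430% to 0.560% of all reads on genes in T1 cells and 0.0506% to 0.0873% in T2 cells. It has 17 annotated transcripts that differ in spliced exons, which a count per gene does not separate. Genes on the other strand share 292 of its exonic bases, 208 of those of Thbs1 and 176 of those of Tnc.

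Thrombospondin 1, encoded by Thbs1 (chromosome 2, 118111876 to 118127133, plus strand), binds CD47, CD36 and integrins and is known as an inhibitor of angiogenesis and an activator of latent TGF-β. Its T1 replicates had 52127, 46676 and 56351 normalized counts. Its T2 replicates had 2705, 2994 and 2850, a narrow band. The means of 51718 ± 4851 and 2850 ± 144 gave a ratio of 18.1 and a log2 difference of 4.18, with a standard error of 0.08. T2 cells were thus far lower than T1 cells, yet still held 2763 to 3071 reads of Thbs1 in a library.

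The other thrombospondins did not share this level. Thbs2 (chromosome 17, 14665500 to 14694235, minus strand), the close relative of Thbs1 with a similar domain order, had 4, 1 and 4 reads in the T1 libraries and 9, 0 and 10 in the T2 libraries. These overlapped, and no fold is given at so few reads. Thbs3 (chromosome 3, 89215180 to 89226837, plus strand), of the group of thrombospondins that assemble as pentamers, had 277, 340 and 291 normalized counts in T1 cells, while T2 cells had 88.1, 142 and 125. Its log2 difference was 1.37 with a standard error of 0.19, a ratio of 2.55, and the groups did not overlap. Thbs3 lies inside the span of Mtx1 on the other strand and shares 318 exonic bases with it. The TruSeq V2 kit does not mark strand, so reads from these bases cannot be assigned to either gene. Thbs4 had no read in any library.

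Periostin, encoded by Postn (chromosome 3, 54361109 to 54391037, plus strand), is a matricellular protein that fibroblasts make and that binds integrins and fibronectin. Its T1 replicates had 126, 146 and 162 normalized counts, or 119, 157 and 166 reads. No T2 library held a read of it. Measured against a floor of 3 reads in each T2 library, Postn was higher in T1 cells by at least 49.4-fold. The fitted log2 difference of 7.18 (standard error 0.33) depends on the pseudocount and is no bound, as it was 8.17 with a pseudocount of 0.5 and 4.90 with one of 5. The study picked its candidate genes, higher in T1 than in T2 cells, from these same samples, so the direction of Postn is not independent evidence.

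Fibrillin 1, encoded by Fbn1 (chromosome 2, 125300594 to 125507993, minus strand), forms the microfibrils around which elastic fibers grow. It was close to the detection limit, with 27, 14 and 18 reads in the T1 libraries and 1, 9 and 5 in the T2 libraries. The groups did not overlap, although the highest T2 library (9 reads) came near the lowest T1 library (14 reads). The log2 difference was 2.03 with a standard error of 0.59, and 1.38 without T2 replicate 1. A transcript annotated on the other strand shares 2442 of its exonic bases.

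Osteopontin, encoded by Spp1 (chromosome 5, 104435118 to 104441050, plus strand), is a secreted phosphoprotein that binds integrins and CD44. It was high in T2 cells. Its T2 replicates had 73484, 70054 and 75899 normalized counts and lay within a narrow band. Its T1 replicates had 5065, 3585 and 4363. The means were 73145 ± 2937 in T2 cells and 4338 ± 740 in T1 cells, 16.9-fold higher in T2 cells, with a log2 difference of -4.09 and a standard error of 0.11. T1 cells still held 3855 to 4787 reads of Spp1 in each library. Macrophages are another well-known source of Spp1. Of 8 macrophage and leukocyte markers, Adgre1 and Tyrobp were at 0 in all 6 libraries, and only Cd68 was abundant enough to be compared. Ptprc had 0, 0 and 0 reads in the T1 libraries and 5, 6 and 3 in the T2 libraries. Csf1r went the other way, with 2, 10 and 8 against 1, 1 and 0, though 873 of its exonic bases are shared with a gene on the other strand. The summed level of the 8 was 60.3 to 95.6 normalized counts in the T1 libraries and 80.7 to 125 in the T2 libraries. The part of such cells in the Spp1 values was not tested.

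Extracellular matrix protein 1, encoded by Ecm1 (chromosome 3, 95734147 to 95739569, minus strand), is a secreted glycoprotein that binds perlecan and other matrix proteins. It had 7475, 8190 and 6742 normalized counts in T2 cells and 496, 401 and 414 in T1 cells. The means of 7469 ± 724 and 437 ± 51.7 stood 17.1-fold apart, with a log2 difference of -4.09 and a standard error of 0.11.

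Tenascin C, encoded by Tnc (chromosome 4, 63959785 to 64047015, minus strand), is a large hexameric glycoprotein that modulates adhesion to fibronectin. It was also higher in T2 cells, but its replicates were far apart. The T2 values were 1075, 1700 and 584 normalized counts and the T1 values 115, 186 and 112. The lowest T2 replicate remained above the highest T1 replicate. The means were 1119 ± 559 and 138 ± 41.7, a ratio of 8.12 and a log2 difference of -2.92 with a standard error of 0.33. It ran from -2.55 without T2 replicate 2 to -3.32 without T2 replicate 3.

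SPARC, encoded by Sparc (chromosome 11, 55394500 to 55423183, minus strand), is a collagen-binding counter-adhesive protein. It was abundant and nearly level, with 4601, 5546 and 5334 normalized counts in T1 cells and 5528, 5686 and 5845 in T2 cells. T1 replicate 2 lay above T2 replicate 1, so the groups overlapped. The log2 difference was -0.14 with a standard error of 0.08.

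**Figure D2:**
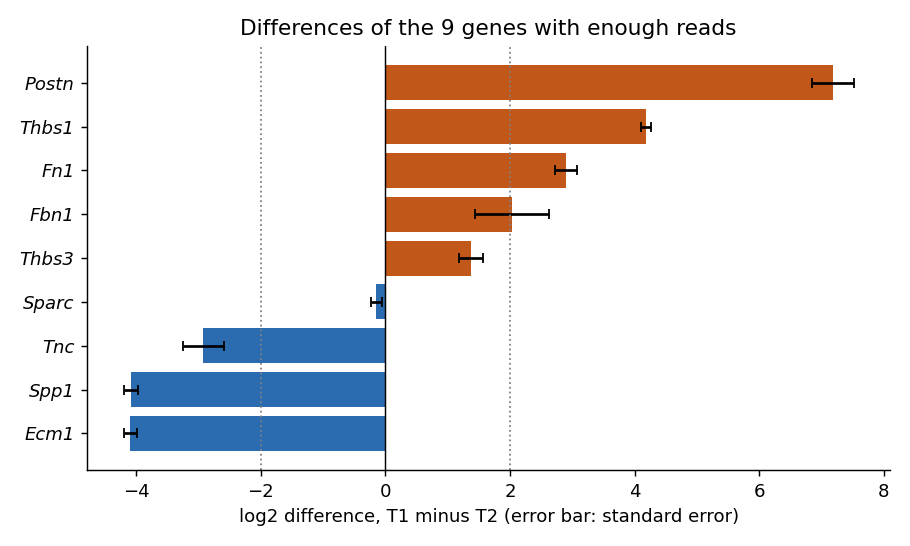
Bars are log2 differences of T1 minus T2 cells from limma, with the standard error, for the 9 genes with enough reads, and dotted lines mark a difference of 2 in either direction. Postn, Thbs1 and Fn1 extend to the right, Spp1, Ecm1 and Tnc to the left, and Sparc stays near 0.

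Levels of different genes were compared as normalized counts per kb of exon, with the exons of all annotated transcripts of a gene merged. In T1 cells Thbs1 (7686 to 9279 per kb) and Fn1 (7139 to 9239) were highest and their ranges overlapped. Thbs1 was above Fn1 in each of the 3 libraries, but this order rests on the merged lengths. They were 11.7 kb for Fn1 with 17 transcripts and 6.07 kb for Thbs1 with 2, while Fn1 had more normalized counts in each T1 library. Spp1 (2175 to 3073) and Sparc (1215 to 1464) followed, then Ecm1 (159 to 197) and Thbs3 (57.5 to 70.6). Tnc (14.4 to 23.9) and Postn (14.5 to 18.6) overlapped, and Fbn1 (1.07 to 2.36) and Thbs2 (0.133 to 0.604) came last. In T2 cells the order was another one. Spp1 stood first at 42508 to 46055 per kb, and Ecm1 (2674 to 3249) was second. Sparc (1459 to 1543) was just above Fn1 (817 to 1432), which was above Thbs1 (445 to 493). Tnc (75.1 to 219) and Thbs3 (18.3 to 29.5) followed, while Fbn1 and Thbs2 overlapped at no more than 1.33 per kb and Postn was at 0.

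As a share of the per-kb sum of the 10 genes, Thbs1 took 41.3% ± 0.785 and Fn1 38.0% ± 2.54 in T1 cells. In T2 cells they took 0.929% ± 0.0610 and 2.14% ± 0.679. Spp1 took 12.8% ± 2.01 in T1 cells and 87.8% ± 1.61 in T2 cells. Ecm1 took 0.845% ± 0.124 in T1 cells and 5.87% ± 0.698 in T2 cells. T1 cells thus had a pair of leading genes in this group and T2 cells a single one. All 10 genes together made up 0.724% to 0.908% of the reads on genes in T1 libraries and 0.531% to 0.550% in T2 libraries.

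**Figure D3:**
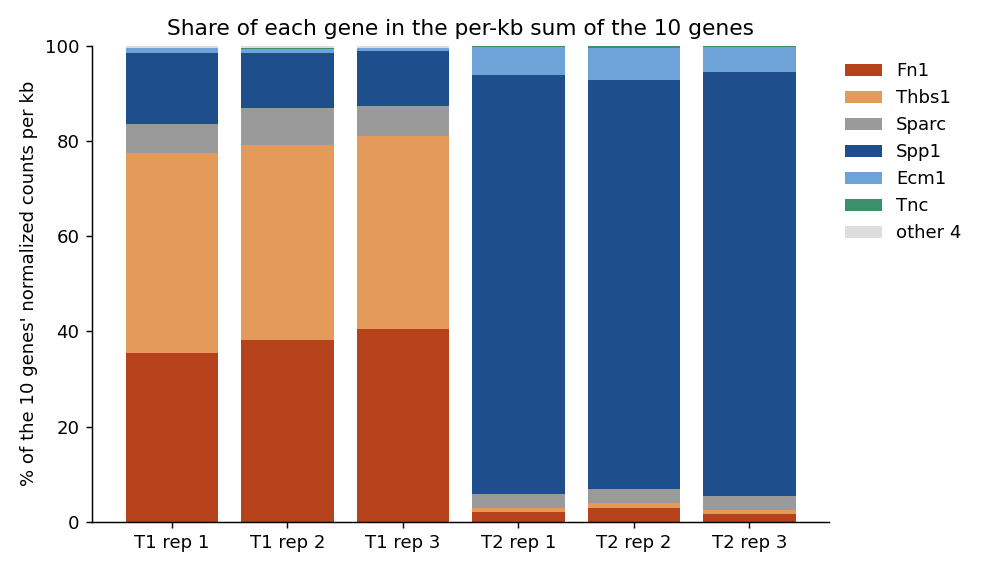
Each bar is 1 replicate and stacks the share of each gene, in percent, in the sum of normalized counts per kb over the 10 genes. Thbs1 and Fn1 fill most of the 3 T1 bars, and Spp1 takes 86.0% to 89.1% of the T2 bars.

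The spread between replicates differed among the genes. On the log2 scale, Tnc had an SD of 0.77 in T2 cells, where 2147 genes of a similar level (within 0.5 log2 units) had a median SD of 0.10. Fn1 had 0.41 in T2 cells, against 0.09 for 204 such genes. Spp1 and Thbs1 had 0.06 and 0.07 in T2 cells, near the medians of 0.07 and 0.09 for such genes. Both were wider in T1 cells, at 0.25 and 0.14, against medians of 0.09 and 0.07. T2 replicate 2 was the highest T2 library for 6 of the 9 genes compared (Fn1, Thbs1, Thbs3, Tnc, Fbn1 and Ecm1), whereas it was the highest for 33.6% of all genes compared. The part of this library in the differences of Fn1, Tnc and Fbn1 is given by the values without it, which were 3.12, -2.55 and 2.56.

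The genes whose profiles over the 6 samples were nearest to Fn1, after each profile was centred on its own mean, were Trim6, Bst2, Ripk4, Pla2g16 and Gls2. Their Euclidean distances to Fn1 in log2 units were 0.27, 0.29, 0.43, 0.44 and 0.44, against a median of 3.64 over all genes compared. Bst2, for instance, had 542, 608 and 859 normalized counts in T1 cells, while T2 cells had 92.0, 123 and 63.1, and so shared with Fn1 the highest T1 value in replicate 3 and the highest T2 value in replicate 2. The likeness rests on 6 samples in 2 groups and is a description.

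Other genes of the matrix were read from lists, in which each gene was tested with limma and adjusted over all genes compared. With the adjusted p-value alone (below 0.01), T1 cells were higher for 25.1% and lower for 24.4% of all genes. Among 36 further matrix glycoproteins, 16 had enough reads and 8 had no read at all. Of the 16, 8 were higher and 6 lower at that threshold, 6 and 1 of them past both filters, with a median log2 difference of 0.57 against -0.0055 over all genes compared. This median was -0.42 when only genes whose mean reached 50 were taken and -0.28 with every gene that had a read.

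CCN proteins are matricellular modulators of integrin and growth factor signals. Wisp1, Ctgf and Nov had the largest absolute log2 differences among the 16 glycoproteins compared. Wisp1 (Ccn4) averaged 2539 ± 394 normalized counts in T1 and 15.9 ± 1.54 in T2 cells, a log2 difference of 7.23 (adjusted p = 5.1e-10, limma with Benjamini-Hochberg adjustment). Ctgf (Ccn2) had 13727 ± 2277 and 178 ± 11.4, a log2 difference of 6.25 (adjusted p = 2.3e-10, limma), though a transcript annotated on the other strand shares 665 of its exonic bases. The study's candidate genes came from these same samples, so the direction of Wisp1 and Ctgf is not independent evidence either. Nov (Ccn3) went the other way, with 4.93 ± 1.67 in T1 cells and 272 ± 56.4 in T2 cells, a log2 difference of -5.54 (adjusted p = 1.1e-07, limma). Cyr61 (Ccn1) was higher in T1 cells by 1.62 (adjusted p = 4.7e-05, limma). Smoc1, a SPARC relative, was higher in T1 cells by at least 8.97-fold and Tgfbi, a periostin relative, by at least 8.06-fold (adjusted p = 2.6e-05 and 0.000285, limma).

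Of 23 receptors of these proteins, 18 had enough reads, of which T1 cells had 5 higher and 10 lower by the adjusted p-value, with a median of -0.66. Past both filters were Itgb6 and Stab1 as higher and Itga8 as lower. Itgb6, a partner of αv that binds fibronectin, had 219 ± 59.1 normalized counts in T1 cells and at most 1 read in a T2 library. It was higher in T1 cells by at least 74.8-fold (adjusted p = 1.5e-07, limma), in the same samples that gave the study its candidate genes. Itga8, whose integrin binds fibronectin and osteopontin, reached 186 ± 89.0 in T2 cells, at least 62.9-fold above T1 cells (adjusted p = 2.4e-06, limma), though 372 of its exonic bases are shared with a gene on the other strand. Stab1, a scavenger receptor for SPARC, had a log2 difference of 3.51 (adjusted p = 1.0e-05, limma). Itgb1, the common beta chain, was higher in T1 cells by 0.77 and Itgb5 by 1.84, while Itgav was lower by a log2 difference of -0.60 and Itga5, the alpha chain of the main fibronectin receptor, of -0.37, all past the adjusted threshold. Itgb3, the chain that pairs with αv in the osteopontin receptor, was low in both, at 92.2 ± 37.0 and 35.8 ± 11.5 normalized counts in T1 and T2 cells. It was nonetheless higher in T1 cells, by a log2 difference of 1.33 (adjusted p = 0.00537, limma). Cd44, which osteopontin binds, averaged 7369 ± 1203 normalized counts in T1 and 16030 ± 95.9 in T2 cells. Cd47, which Thbs1 binds, had 1001 ± 101 and 3478 ± 120, a log2 difference of -1.80 (adjusted p = 9.4e-08, limma). Sdc4, a co-receptor for fibronectin, had a log2 difference of -0.92, and Cd36 had no read in any library.

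**Figure D4:**
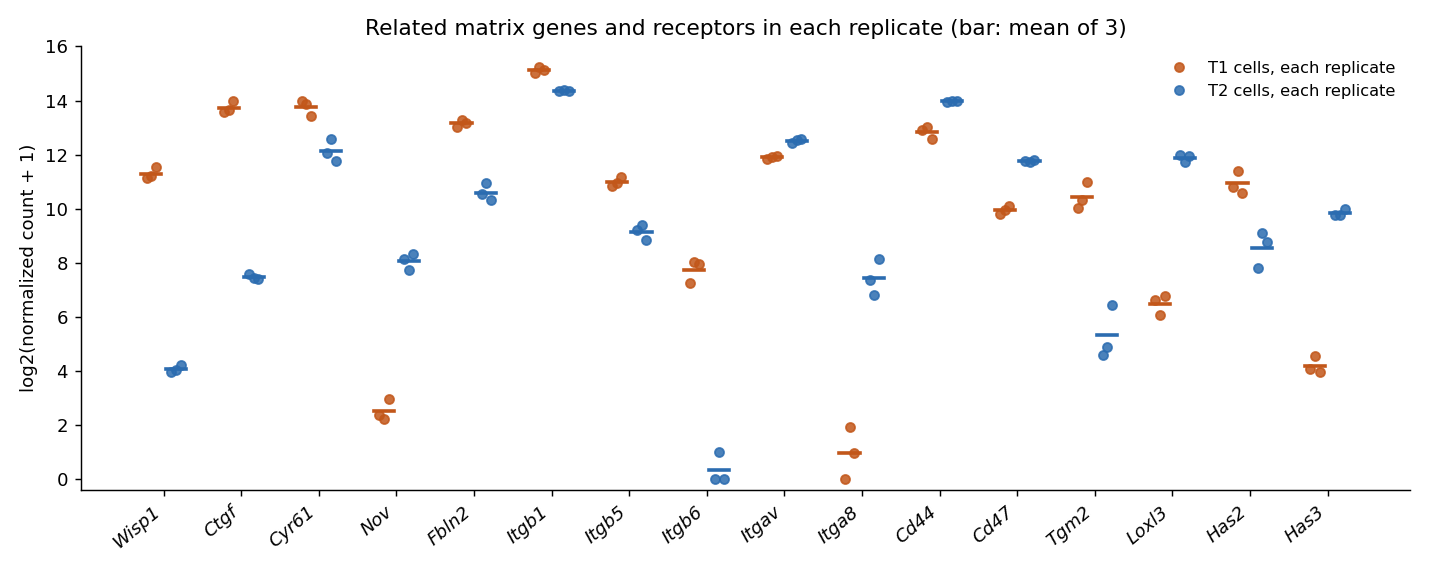
Each point is 1 replicate, with log2(normalized count + 1) on the vertical axis, for CCN genes, Fbln2, receptors, cross-linking enzymes and hyaluronan synthases, T1 cells in orange, T2 cells in blue and a bar at the mean of 3. Wisp1 and Ctgf stand high in T1 cells, Nov, Loxl3 and Has3 high in T2 cells, and Cd44 and Cd47 are moderately higher in T2 cells.

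Among 20 genes of matrix assembly, cross-linking and cleavage, 14 had enough reads, with 5 higher and 2 lower past both filters and a median of 0.19. Tgm2, the transglutaminase that cross-links fibronectin, averaged 1456 ± 532 normalized counts in T1 and 46.5 ± 35.4 in T2 cells, a log2 difference of 5.13 (adjusted p = 3.2e-06, limma), though 1003 of its exonic bases are shared with genes on the other strand. The lysyl oxidase relatives were split. Loxl1 was higher in T1 cells by at least 8.27-fold (adjusted p = 2.2e-05, limma), whereas Loxl3 had a log2 difference of -5.38 (adjusted p = 4.0e-09, limma), with 535 exonic bases shared with a gene on the other strand. Loxl4 was higher in T1 cells, with 9071 ± 1312 and 4382 ± 210 normalized counts in T1 and T2 cells, a log2 difference of 1.04 (adjusted p = 9.2e-06, limma). Loxl2 had at most 18 reads in a T1 library and none in T2 cells, and Lox had 1 read in all. Tgm1 was higher in T1 cells by at least 9.83-fold (adjusted p = 6.4e-06, limma), at 28.8 ± 5.90 normalized counts.

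Of 21 proteoglycans and hyaluronan enzymes, 16 were below the filter, Bgn and Vcan among them, and 7 of these had no read. The median of the 5 compared was 0.42. Has2 was higher in T1 cells by 2.38 (adjusted p = 6.3e-05, limma) and Has3 lower, with a log2 difference of -5.65 (adjusted p = 6.7e-09, limma), so that these synthases of the same polymer went opposite ways. Genes on the other strand share 182 exonic bases of Has2 and 352 of Has3. Hspg2, which encodes perlecan, had 9411 ± 1150 and 10829 ± 1110 normalized counts in T1 and T2 cells and did not pass the test (adjusted p = 0.111, limma). Of 25 adapters and kinases of integrin adhesion sites, 22 had enough reads, with a median of 0.13, and only Fermt1 (3.84, adjusted p = 2.6e-06, limma) and Tns4 (-3.61, adjusted p = 1.9e-08, limma) lay past both filters. Ptk2, the focal adhesion kinase, had a log2 difference of 0.25 (adjusted p = 0.0293, limma).

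**Figure D5:**
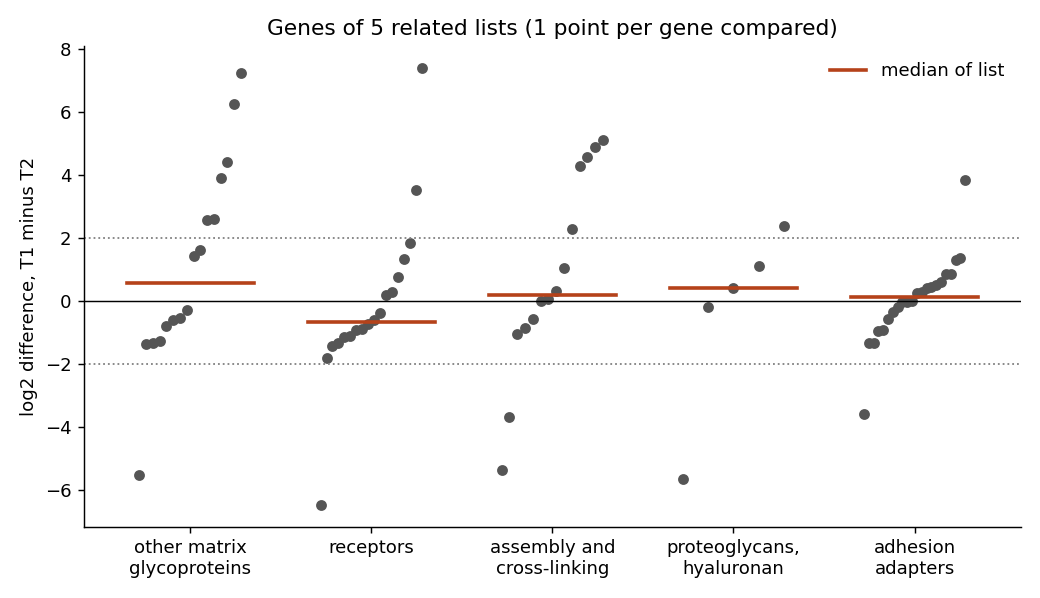
Each point is the log2 difference of T1 minus T2 cells of 1 gene, in 5 lists of related genes, with the median of the list as a bar and dotted lines at a difference of 2 in either direction. Medians lie between -0.66 (receptors) and 0.57 (other matrix glycoproteins), and each list holds genes beyond 2 on both sides.

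Fibroblasts make fibronectin, periostin, tenascin C and fibrillin, and the populations came out of a fibroblast culture, from which they were sorted by GFP. Of 10 fibroblast markers, Col3a1, Pdgfrb, Lum and Thy1 were at 0 in all 6 libraries, while the others did not share a direction. Col1a1 had 14, 30 and 25 reads in the T1 libraries and 1, 0 and 0 in the T2 libraries, higher in T1 cells by at least 7.63-fold (adjusted p = 4.9e-05, limma). Col1a2 had 4, 7 and 12 reads in the T1 libraries and 0, 0 and 0 in the T2 libraries. Acta2 had 6, 7 and 5 against 0, 3 and 1. Both were too low to be compared, but their T1 libraries were all above their T2 libraries. Of all genes compared, 68.1% had T1 and T2 values that did not overlap. Among the fibroblast products named above, Fn1 and Postn were higher in T1 cells and Tnc in T2 cells. Fbn1 was also higher in T1 cells, but it was close to the detection limit and did not pass the adjusted threshold. Pdgfra was higher in T2 cells, with a log2 difference of -2.45 (adjusted p = 1.3e-07, limma), though 622 of its exonic bases are shared with genes on the other strand. The sum of the 10 was 232 to 246 normalized counts in T1 cells and 997 to 1298 in T2 cells, of which Pdgfra alone was 191 to 206 and 996 to 1295. Pdgfra encodes CD140a, on which the fibroblasts of the starting culture had been sorted. Of 6 endothelial markers none had enough reads, with Kdr and Emcn at 0 and a sum of at most 15.9. Platelets store Thbs1 and Sparc. Of 4 platelet markers, Itga2b and Ppbp had enough reads, and the sum of the 4 was 40.2 to 57.6 in T1 cells and 29.7 to 42.1 in T2 cells. Within it, Ppbp was higher in T1 cells, as Thbs1 was, at 35.7 ± 2.51 against 4.49 ± 1.78 normalized counts (log2 difference 2.79, adjusted p = 6.6e-05, limma). Itga2b did not pass the test (log2 difference -1.33, adjusted p = 0.0573, limma), Gp1ba had 3, 7 and 1 reads in T1 and 12, 10 and 9 in T2 libraries, and Pf4 had at most 3 reads. The part of these cells in the values of the 10 genes was not tested.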

How the data were processed

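Poly(A) RNA of 3 replicates of T1 and 3 replicates of T2 cells was sequenced as paired 150 bp reads. The authors trimmed adapters with Trimmomatic, aligned to mm10 with TopHat2, counted with HTSeq and normalized with DESeq2; annotation, strand setting and versions are not given in the sources used here. The deposited signal holds, for each gene, reads scaled by the size factor of the sample. Within a tolerance of 0.01 read, 100% of values were whole multiples of 1 read, so reads were recovered. All columns were used (0 left out). Rows named by a date (27) are not named.

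The 10 genes and all lists were chosen with earlier results of these data known. limma 3.58.1 (R 4.3.3) was run on log2(normalized count + 1) with a variance trend, for genes with a mean of at least 10, with Benjamini-Hochberg adjustment over all 11514. Calls used the cut-offs that the study applied to DESeq2 (adjusted p under 0.01, log2 difference above 2), here with limma and in both directions. Residual spread is that between labelled replicates, which may be technical. With 3 against 3, the smallest exact permutation p is 0.1, so none is given. Where no library of a population exceeded 3 reads, the fold was taken against 3 reads in each library as a lower bound; floors cover counting error only. Coordinates and exonic length came from GENCODE M21 (GRCm38), promoters from RefSeq (GRCm38.p6). The 4 promoters printed were chosen with the values known.

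Beyond the 10 genes, the text names the 4 genes with the largest absolute log2 difference past both filters in each list whose groups do not overlap, 19 genes named whatever their values, markers and the 5 profiles nearest to Fn1; Itgb5 and Loxl4 were added with their values known. Alternatives were the pseudocount (0.5 and 5), the filter (none and 50), quantile normalization, edgeR 4.0.16 and DESeq2 1.42.0 on recovered reads, a replicate block, and each replicate left out. The tests were tested on simulated data. Figures used matplotlib 3.10.9.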

Additional observations from a re-analysis of the deposited data

How the results depend on the processing

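Of 125 values of the log2 difference of the 9 genes under the alternatives, 121 moved by less than the spread between replicates, 4 moved by more and 0 changed the sign of a called difference. The 4 were all Postn, which has no T2 read and ran from 4.90 (pseudocount of 5) to 10.21 (edgeR). For many of the 125 values the outcome was fixed in advance. Leaving out 1 of 3 replicates cannot move a difference past this spread. The filter and the replicate block do not change the fitted difference at all. Only the pseudocount, the quantile normalization, edgeR and DESeq2 could have moved a value past it. Thbs1 stayed between 4.11 and 4.26, Fn1 between 2.72 and 3.12, Spp1 between -4.21 and -3.95, Ecm1 between -4.19 and -4.03, Tnc between -3.32 and -2.55, Thbs3 between 1.17 and 1.51, Fbn1 between 1.35 and 2.56 and Sparc between -0.20 and -0.06. The counts of genes past both filters, for all genes and for each of the 5 lists, stayed within 1.5 times their main value in all 84 alternatives. For all genes the count was 964, and 929 to 970 with each replicate left out. Of 70 list medians under the alternatives, 8 moved by more than the spread between replicates. The median of the matrix glycoproteins ran from -0.42 to 0.78. That of assembly and cross-linking ran from 0.02 to 0.33 and that of the adhesion adapters from 0.09 to 0.25. The proteoglycans ran from 0.31 to 0.54 and the receptors from -0.69 to -0.60. After each group's mean was subtracted, same-numbered T1 and T2 replicates correlated at 0.06, 0.17 and 0.10. The other pairs ran from -0.15 to 0.07. T2 replicate 1 correlated best with T1 replicate 3 (0.07), and the other T2 replicates with the T1 replicate of their number. Whether the numbers pair the samples could not be told from these values, and the main fit did not pair them. With a replicate block 967 genes passed both filters, and no count for a list changed. Thbs2 and Fbn1 are limited by depth.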
